A study of Rattus norvegicus with 9 samples.

Results

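The genes that charge transfer RNA (tRNA) with amino acids were followed in HEI-OC1 cells exposed to ototoxic drugs. The members were taken by gene symbol, 38 of the 19608 genes in the deposited table. A set of 22 genes serves the cytosol, made up of 19 enzyme genes and the 3 scaffold genes Aimp1, Aimp2 and Eef1e1, and 16 genes encode mitochondrial enzymes. HEI-OC1 is an immortalized line of auditory origin, established from cochlear tissue and often used as a stand-in for hair cells. The treatments compared were cisplatin (a platinum drug that crosslinks DNA), neomycin (an aminoglycoside antibiotic that binds ribosomal RNA) and phosphate-buffered saline (PBS), each for 24 h with 3 libraries. The labels end the line's name in a different number in each sample; all 9 were treated as the same line here, and no genotype is named. No dose is stated, and nothing says that the 3 libraries of a treatment are separate cultures. The p-values therefore set each difference only against the spread of these libraries, which may be technical.

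An aminoacyl-tRNA synthetase joins an amino acid to its tRNA, and its accuracy sets the accuracy of protein synthesis. The cytosol and the mitochondrion mostly use enzymes from separate nuclear genes. Kars1 and Gars1 are exceptions that supply both compartments, and mitochondrial glutaminyl-tRNA is made by Ears2 together with an amidotransferase. Several cytosolic enzymes are held in the multisynthetase complex by the scaffold proteins of Aimp1, Aimp2 and Eef1e1. Many cytosolic synthetase genes are targets of ATF4, the transcription factor of the integrated stress response, and uncharged tRNA, acting on the kinase GCN2, is among the triggers of that response. In people, variants of HARS2 and LARS2 cause Perrault syndrome, in which hearing is lost, and variants of KARS1 and NARS2 cause deafness.

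The values are FPKM, fragment counts scaled by gene length and by library size. Library totals, worked out from the steps of the FPKM values, lay between 27516629 and 40221089 reads. Every cytosolic member had at least 389 reads in each library and every mitochondrial member at least 45. Of the hair cell markers looked up, 10 had values. Myo7a and Myo6 averaged above 1 FPKM over all libraries, and the other 8, among them Pou4f3, Otof and Slc26a5, did not. Of 5 supporting cell markers with values, 4 averaged above 1 FPKM, namely Hes1 (37.5), Jag1 (10.6), Sox9 (6.91) and Notch1 (2.41). The summed level of 6 fibroblast markers was 1280 to 1430 FPKM with cisplatin, 4010 to 4060 FPKM with neomycin and 4730 to 5120 FPKM with PBS, and its part in the results was not tested. Col1a1 and Col1a2 made up most of the sum. With cisplatin 5 of the 6 fell, while with neomycin these collagens fell (-0.32 and -0.31), Pdgfra (0.24) and Pdgfrb (0.27) rose and Col3a1 was not called (-0.05). In bulk RNA, fewer cells expressing a gene and less of its RNA per cell cannot be told apart. The labels and annotation are those of rat, although the line is known to be of mouse origin, so levels of different genes are only roughly comparable.

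All 38 members passed the filter of a mean of at least 1 FPKM and were tested on log2(FPKM + 1) with limma. In level per length, the means over all libraries ran from 377 FPKM for Sars1, the seryl enzyme, and 345 FPKM for Aars1, the alanyl enzyme, to 31.5 FPKM for Iars1, the isoleucyl enzyme, within the cytosolic set. The mitochondrial means ran from 20.1 FPKM for Tars2, the threonyl enzyme, to 1.39 FPKM for Cars2, the cysteinyl enzyme. The sets did not overlap in the cisplatin and PBS libraries. In the neomycin libraries Eef1e1 (14.2 to 16.4 FPKM) lay below the highest mitochondrial gene, Iars2 (19.6 to 20 FPKM).

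Cells given cisplatin had less mRNA of most cytosolic enzymes and more of all 3 scaffold genes than cells given PBS. Of the 22 cytosolic members 12 fell, beside 30.5% of all tested genes, and 7 rose, beside 47.5% of all tested genes. The 12 were all enzymes, and the 7 were the 3 scaffold genes with Hars1, Rars1, Farsa and Kars1. The median log2 fold change was -0.19 over the cytosolic set, -0.27 over the 19 enzymes and 0.12 over all tested genes. Replicates of the drug and of PBS did not overlap for 20 of the 22, beside 80.1% of all tested genes. Median-of-ratios scaling removed that shift of the median gene, and then 4031 tested genes were higher and 4068 lower in place of 5001 and 3215, with a cytosolic median of -0.32.

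All 3 scaffold genes, whose proteins hold the multisynthetase complex together, rose with cisplatin. Aimp1, which also gives rise to a secreted cytokine, had 141, 131 and 150 FPKM with cisplatin, against 75.2, 78.3 and 73.1 FPKM with PBS (log2 fold change 0.89 ± 0.05, SE; limma adjusted p = 1.1e-09). Aimp2 had 69.9, 67.3 and 67.9 FPKM with cisplatin, against 44.9, 34.5 and 35.3 FPKM with PBS (0.83 ± 0.08; adjusted p = 3.1e-07). Eef1e1 had 55.7, 55.5 and 60.6 FPKM with cisplatin, against 34.6, 35.3 and 36.6 FPKM with PBS (0.67 ± 0.06; adjusted p = 6.7e-08). Every cisplatin library stood above every PBS library for all 3 genes. The summed level of the 3 was 266 ± 12.5 FPKM with cisplatin and 149 ± 4.84 FPKM with PBS (SD, n = 3 each).

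Among the cytosolic enzymes the largest falls with cisplatin were those of Nars1, Eprs1, Qars1 and Gars1. Nars1, the asparaginyl enzyme, had 86.2, 85.7 and 90.2 FPKM with cisplatin, against 142, 139 and 140 FPKM with PBS (log2 fold change -0.67 ± 0.04; limma adjusted p = 2.5e-09). Eprs1, a fused enzyme for glutamate and proline, had 122, 126 and 121 FPKM with cisplatin, against 190, 191 and 191 FPKM with PBS (-0.63 ± 0.04; adjusted p = 3.6e-09). In neither gene did the groups overlap, and the PBS libraries of Eprs1 lay close together. Qars1, the glutaminyl enzyme, had 33.6, 34.7 and 32.0 FPKM with cisplatin, against 54.4, 50.7 and 51.2 FPKM with PBS (-0.62 ± 0.05). Gars1, the glycyl enzyme of both compartments, had 117, 119 and 117 FPKM with cisplatin, against 183, 177 and 179 FPKM with PBS (-0.61 ± 0.04). Smaller falls, from -0.42 for Yars1 (tyrosyl) to -0.17 for Mars1 (methionyl), were called for Yars1, Aars1, Wars1 (tryptophanyl), Iars1, Lars1 (leucyl), Tars1 (threonyl), Vars1 (valyl) and Mars1.

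The enzymes that rose with cisplatin stood against that direction. Hars1, the histidyl enzyme, had 61.5, 60.1 and 61.2 FPKM with cisplatin, against 38.1, 39.6 and 37.9 FPKM with PBS (log2 fold change 0.65 ± 0.04; limma adjusted p = 6.6e-09). Rars1, the arginyl enzyme, had 120, 122 and 121 FPKM with cisplatin, against 87.9, 76.2 and 78.4 FPKM with PBS (0.58 ± 0.05; adjusted p = 2.6e-07). Farsa, the alpha subunit of the phenylalanyl enzyme, had 53.9, 52.8 and 51.9 FPKM with cisplatin, against 38.3, 33.4 and 34.2 FPKM with PBS (0.57 ± 0.06; adjusted p = 4.9e-07). All of their cisplatin libraries lay above their PBS libraries. Kars1, the lysyl enzyme of both compartments, had 186, 177 and 182 FPKM with cisplatin, against 148, 135 and 138 FPKM with PBS (0.37 ± 0.05; adjusted p = 1.4e-05). Kars1 and Gars1, both used in mitochondria too, thus moved in opposite directions with cisplatin.

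Cytosolic enzymes not called for cisplatin were Farsb, Cars1 and Sars1. Farsb, the beta subunit of the phenylalanyl enzyme, had 57.0, 59.1 and 58.9 FPKM with cisplatin, against 59.2, 57.7 and 59.0 FPKM with PBS (log2 fold change -0.01 ± 0.04; limma adjusted p = 0.87). Cars1, the cysteinyl enzyme, had 53.0, 54.2 and 51.5 FPKM with cisplatin, against 64.5, 53.4 and 55.4 FPKM with PBS (-0.12 ± 0.07; adjusted p = 0.10). The high PBS value of Cars1 came from PBS replicate 1. Sars1 had 390, 390 and 386 FPKM with cisplatin, against 475, 402 and 423 FPKM with PBS (-0.15 ± 0.07; adjusted p = 0.066), groups that did not overlap. Median-of-ratios scaling called all 3 lower, at -0.14 for Farsb, -0.26 for Cars1 and -0.29 for Sars1. Leaving out PBS replicate 2 also called Cars1 (-0.17, adjusted p = 0.034) and Sars1 (-0.21, 0.029), and leaving out neomycin replicate 1 (0.042) or 3 (0.019) called Sars1.

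The mitochondrial enzymes divided with cisplatin, 5 higher, 7 lower and 4 not called, beside 47.5% higher and 30.5% lower among all tested genes, with a median log2 fold change of 0.03. Fars2, the phenylalanyl enzyme, was the only member at least 2-fold lower on the log2(FPKM + 1) scale, beside 3.36% of all tested genes. It had 0.704, 0.793 and 0.775 FPKM with cisplatin, against 3.38, 3.22 and 3.47 FPKM with PBS, from 187 to 1063 reads per library over the series (-1.31 ± 0.06; limma adjusted p = 3.0e-10). The mean FPKM fell by 77.4%, which the log2(FPKM + 1) scale understates. Yars2, the tyrosyl enzyme, had 7.07, 6.01 and 6.77 FPKM with cisplatin, against 3.00, 3.82 and 2.73 FPKM with PBS (0.87 ± 0.09; adjusted p = 5.9e-07). Sars2, the seryl enzyme, had 8.32, 8.17 and 8.91 FPKM with cisplatin, against 5.06, 3.99 and 4.46 FPKM with PBS (0.79 ± 0.09; adjusted p = 2.3e-06). Neither gene's cisplatin libraries met its PBS libraries. Nars2, the asparaginyl enzyme, had 1.92, 1.78 and 2.06 FPKM with cisplatin, against 2.91, 3.09 and 3.49 FPKM with PBS (-0.51 ± 0.07; adjusted p = 1.6e-05).

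Mars2 (methionyl, log2 fold change 0.44), Rars2 (arginyl, 0.33) and Vars2 (valyl, 0.20) also rose with cisplatin. The last was not called with median-of-ratios scaling (0.09, limma adjusted p = 0.21) or quantile normalization (0.14, 0.053). Wars2 (tryptophanyl, -0.40), Cars2 (-0.29), Lars2 (leucyl, -0.25), Iars2 (isoleucyl, -0.23) and Aars2 (alanyl, -0.20) also fell. The Aars2 call did not hold when PBS replicate 2 (adjusted p = 0.062), cisplatin replicate 1 (0.052) or cisplatin replicate 2 (0.064) was left out, nor that of Vars2 when cisplatin replicate 2 was (0.05). Not called were Hars2 (0.07 ± 0.07), Tars2 (0.11 ± 0.05), Pars2 (prolyl, 0.04 ± 0.07) and Ears2 (glutamyl, 0.02 ± 0.15), and Hars2 was called at 0.14 when PBS replicate 1 was left out (0.048).

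**Figure D1:**
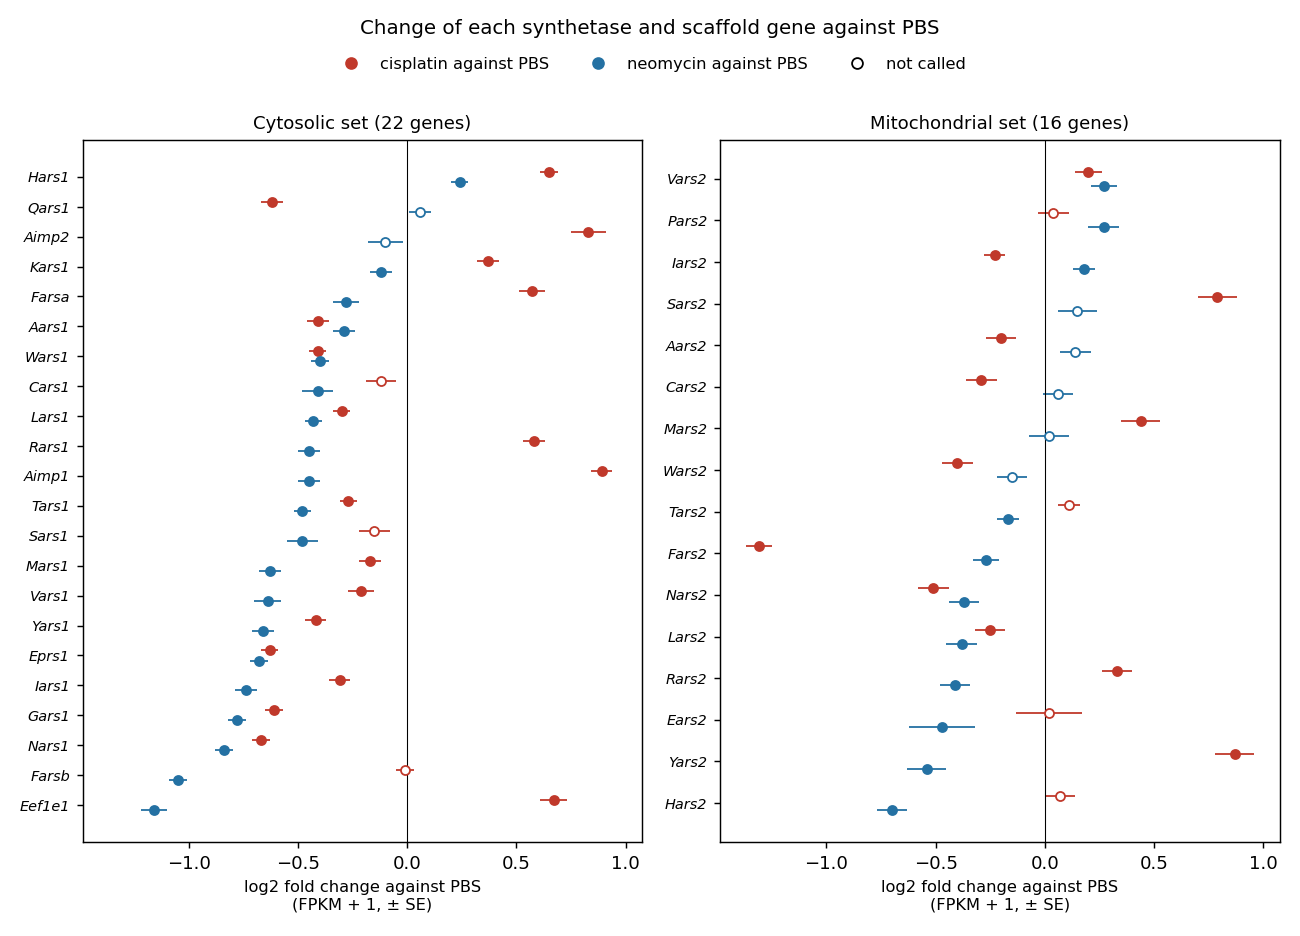
Log2 fold change (x axis, FPKM + 1, ± SE) of each of the 22 cytosolic (left) and 16 mitochondrial (right) genes against PBS, red for cisplatin and blue for neomycin, open where not called, ordered by the neomycin value. The blue points of the cytosolic set lie mostly below 0, while the red points lie on both sides, with Aimp1 (0.89) and Aimp2 (0.83) the highest.

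Cells given neomycin had less mRNA of nearly all cytosolic members than cells given PBS. Of 22 members 19 fell, beside 28.7% of all tested genes, and Hars1 alone rose, beside 37.5% of all tested genes (66.2% were called in either direction). Qars1 and Aimp2 were not called. The median log2 fold change was -0.46 over the cytosolic set and 0.04 over all tested genes. Replicates did not overlap for 20 of the 22, beside 67.4% of all tested genes. The summed level of the 19 enzymes was 1786, 1738 and 1625 FPKM with neomycin, against 2513, 2289 and 2350 FPKM with PBS, a mean 28.0% lower. With cisplatin the same sum was 2045, 2057 and 2026 FPKM, a mean 14.3% lower than with PBS. The summed ranges of the 3 treatments did not overlap, and PBS replicate 1 was the highest library.

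Eef1e1 and Farsb were the only members at least 2-fold lower with neomycin, beside 0.646% of all tested genes, and none was at least 2-fold higher, beside 1.08%. Eef1e1 had 15.6, 14.2 and 16.4 FPKM with neomycin, against 34.6, 35.3 and 36.6 FPKM with PBS (log2 fold change -1.16 ± 0.06; limma adjusted p = 2.0e-09). Farsb had 26.5, 29.0 and 27.9 FPKM with neomycin, against 59.2, 57.7 and 59.0 FPKM with PBS (-1.05 ± 0.04; adjusted p = 6.4e-10). Their changes were the 35th and 53rd lowest of the 10532 tested genes. Farsa, the partner subunit of Farsb, had 31.0, 27.6 and 28.2 FPKM with neomycin, against 38.3, 33.4 and 34.2 FPKM with PBS (-0.28 ± 0.06; adjusted p = 0.00079). The FPKM ratio of Farsa over Farsb was 0.882 to 0.945 with cisplatin, 0.952 to 1.17 with neomycin and 0.579 to 0.647 with PBS. It was thus higher in every drug library than in every PBS library, and an exact two-sided permutation test of 3 against 3 libraries cannot go below p = 0.10.

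Nars1, Gars1, Iars1 and Eprs1 followed in size among the cytosolic enzymes. Nars1 had 80.8, 78.0 and 75.0 FPKM with neomycin, against 142, 139 and 140 FPKM with PBS (log2 fold change -0.84 ± 0.04; limma adjusted p = 2.1e-09). Gars1 had 108, 103 and 102 FPKM with neomycin, against 183, 177 and 179 FPKM with PBS (-0.78 ± 0.04; adjusted p = 2.0e-09). Iars1 had 23.5, 23.3 and 23.0 FPKM with neomycin, against 41.7, 37.5 and 39.6 FPKM with PBS (-0.74 ± 0.05; adjusted p = 2.6e-08). The neomycin libraries of Iars1 lay within 1 FPKM of each other, and no group overlapped in these genes. Eprs1 had 120, 122 and 114 FPKM with neomycin, against 190, 191 and 191 FPKM with PBS (-0.68 ± 0.04; adjusted p = 9.5e-09). Further falls ran from -0.66 for Yars1 to -0.29 for Aars1, with Vars1, Mars1, Tars1, Sars1, Rars1, Lars1, Cars1 and Wars1 in between.

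The scaffold genes did not move alike with neomycin. Aimp1 had 55.9, 54.9 and 54.4 FPKM with neomycin, against 75.2, 78.3 and 73.1 FPKM with PBS (log2 fold change -0.45 ± 0.05; limma adjusted p = 3.3e-06). Aimp2 had 35.2, 37.9 and 33.3 FPKM with neomycin, against 44.9, 34.5 and 35.3 FPKM with PBS (-0.10 ± 0.08; adjusted p = 0.29), and its groups overlapped. Kars1 had 134, 134 and 119 FPKM with neomycin, against 148, 135 and 138 FPKM with PBS (-0.12 ± 0.05; adjusted p = 0.046). That call lay near the threshold. It was lost when neomycin replicate 3 (adjusted p = 0.22), PBS replicate 1 (0.16), PBS replicate 3 (0.06) or any of the cisplatin libraries (0.056 to 0.059) was left out. It was also lost with no filter on low values (0.11), quantile normalization (0.067), array weights (0.12) or only the 2 groups compared (0.073).

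Hars1 and Qars1 did not share the fall with neomycin. Hars1 had 47.7, 45.6 and 43.7 FPKM with neomycin, against 38.1, 39.6 and 37.9 FPKM with PBS (log2 fold change 0.24 ± 0.04; limma adjusted p = 0.00026). Qars1 had 54.8, 53.0 and 55.1 FPKM with neomycin, against 54.4, 50.7 and 51.2 FPKM with PBS (0.06 ± 0.05; adjusted p = 0.26). Hars1 was thus higher than PBS in all 6 drug libraries.

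Of the mitochondrial enzymes 8 fell with neomycin, 3 rose and 5 were not called, beside 28.7% lower and 37.5% higher among all tested genes, with a median log2 fold change of -0.16. Hars2, the mitochondrial partner of Hars1, had 6.33, 6.11 and 5.80 FPKM with neomycin, against 11.6, 9.80 and 10.1 FPKM with PBS (-0.70 ± 0.07; limma adjusted p = 6.8e-07). Yars2 had 1.82, 1.94 and 1.80 FPKM with neomycin, against 3.00, 3.82 and 2.73 FPKM with PBS (-0.54 ± 0.09; adjusted p = 0.00011). Rars2 had 1.29, 0.995 and 1.22 FPKM with neomycin, against 1.77, 1.85 and 2.01 FPKM with PBS (-0.41 ± 0.07). None of these groups overlapped. Lars2 had 4.37, 4.01 and 4.92 FPKM with neomycin, against 6.29, 6.19 and 5.71 FPKM with PBS (-0.38 ± 0.07). Nars2 (-0.37), Fars2 (-0.27) and Tars2 (-0.17) also fell, the last not without neomycin replicate 3 (adjusted p = 0.066).

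Ears2 was the least certain of the 8. It had 1.34, 1.03 and 0.666 FPKM with neomycin, against 2.01, 1.30 and 2.07 FPKM with PBS, from 45 to 188 reads per library over the series (log2 fold change -0.47 ± 0.15; limma adjusted p = 0.012). Its groups overlapped, and the call was lost without neomycin replicate 3 (adjusted p = 0.062) and with no filter on low values (0.077). Vars2 (0.27 ± 0.06), Pars2 (0.27 ± 0.07) and Iars2 (0.18 ± 0.05) rose with neomycin. Quantile normalization did not call Pars2 (0.19, adjusted p = 0.058). Not called were Aars2 (0.14 ± 0.07), Sars2 (0.15 ± 0.09), Cars2 (0.06 ± 0.07), Mars2 (0.02 ± 0.09) and Wars2 (-0.15 ± 0.07). Of these, Aars2 was called at 0.20 when neomycin replicate 1 was left out (adjusted p = 0.029) and Sars2 at 0.24 when neomycin replicate 3 was (0.025). Wars2 was called lower with median-of-ratios scaling (-0.18, 0.034) and quantile normalization (-0.28, 0.0025). The summed mitochondrial level was 78.0 ± 1.70 FPKM with neomycin and 85.8 ± 1.29 FPKM with PBS (SD, n = 3 each), a mean 9.1% lower.

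**Figure D2:**
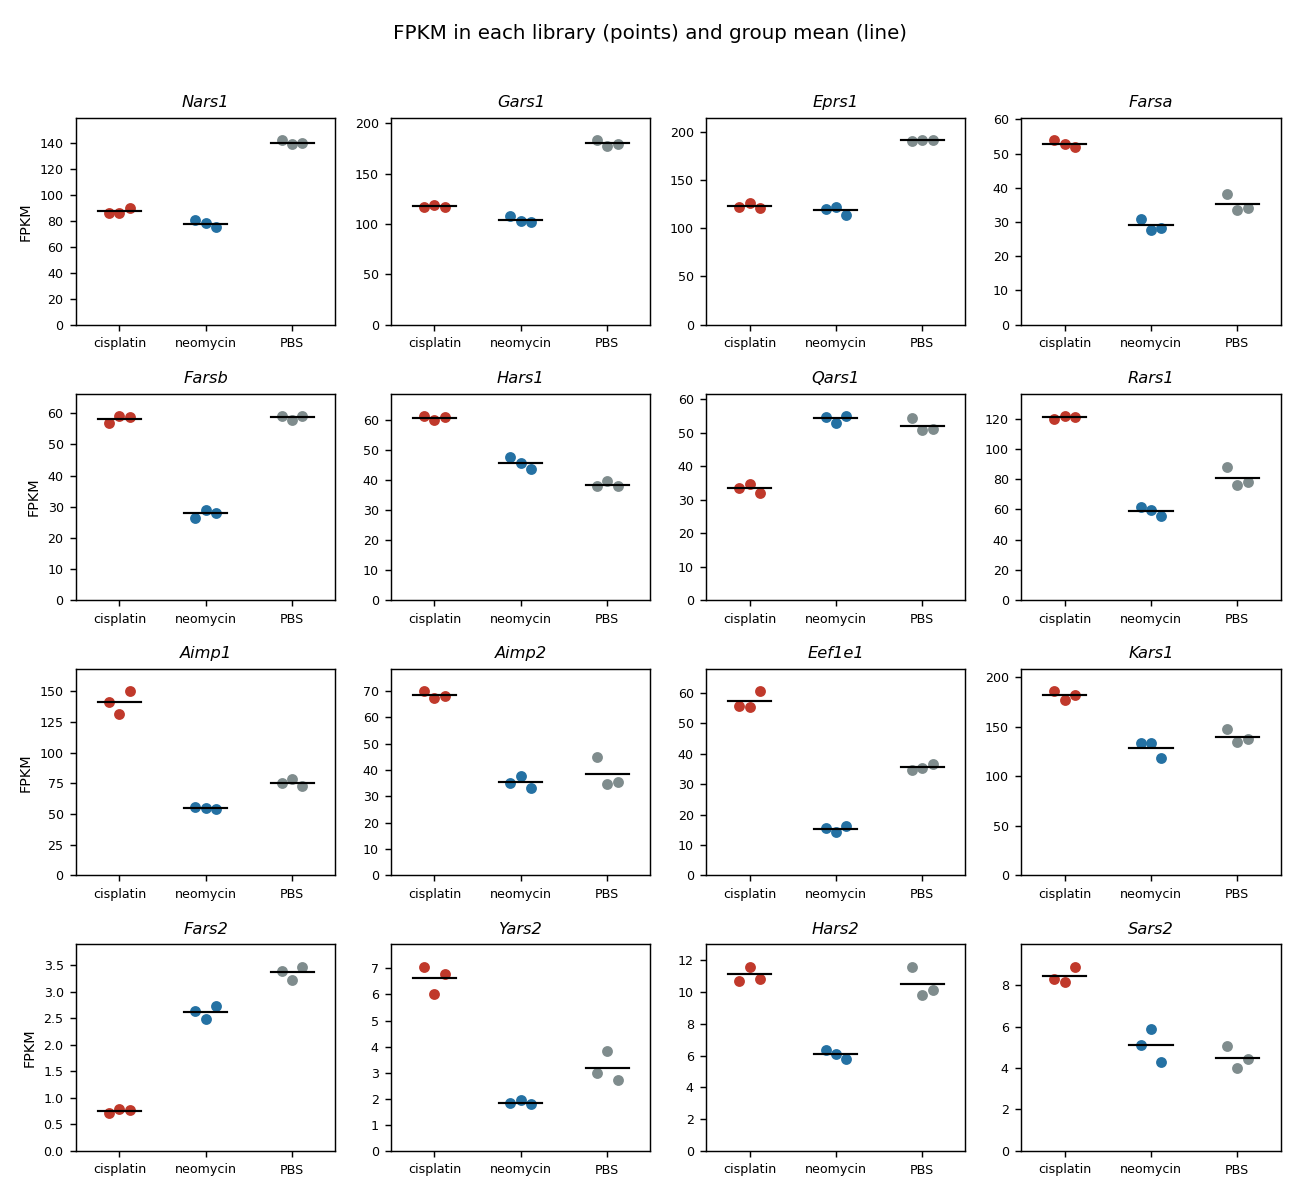
FPKM (y axis, from 0) of 16 members in each library, with cisplatin, neomycin and PBS from left to right and a line at the mean of 3 libraries. Farsb is low with neomycin alone (26.5 to 29.0 FPKM) and Qars1 with cisplatin alone (32.0 to 34.7 FPKM), and Eef1e1 and Yars2 are highest with cisplatin and lowest with neomycin.

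Enzymes often named as ATF4 targets were set beside the other cytosolic enzymes. All 13 of that list fell with neomycin (median log2 fold change -0.63), and 11 of the 13 fell with cisplatin (median -0.31), with Cars1 and Sars1 not called. Among all tested genes 28.7% fell with neomycin and 30.5% with cisplatin. Of the 6 other cytosolic enzymes 4 fell and Hars1 rose with neomycin (median -0.20), and 4 rose and Qars1 fell with cisplatin (median 0.47), beside 37.5% and 47.5% of all tested genes that rose. Both drugs were compared with the same PBS libraries, so the counts are not independent of each other. The list was written from general knowledge, but with earlier results of these data known, and no test of it was made. Atf4 itself had 482, 467 and 500 FPKM with cisplatin, 248, 229 and 255 FPKM with neomycin and 360, 348 and 369 FPKM with PBS. Its mRNA thus rose with cisplatin (0.43 ± 0.05; limma adjusted p = 1.2e-06) and fell with neomycin (-0.56 ± 0.05; adjusted p = 2.4e-07). Asns, the asparagine synthetase gene and a classical ATF4 target, fell with both drugs, to 30.3 to 32.1 FPKM with cisplatin and 30 to 33.2 FPKM with neomycin, against 61.4 to 70.2 FPKM with PBS. Ddit3, another ATF4 target, which encodes CHOP, rose with cisplatin (221 to 226 FPKM, 0.43 ± 0.06) and fell with neomycin (73.2 to 85.8 FPKM, -1.08 ± 0.06), against 156 to 176 FPKM with PBS. Trib3, also a target, fell with both (-1.60 and -1.72).

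By position in the cell, the 7 enzymes of the multisynthetase complex divided as 2 higher and 5 lower with cisplatin (median log2 fold change -0.30) and as 6 lower with neomycin (-0.45). The 12 enzymes outside it divided as 2 higher and 7 lower with cisplatin (-0.24) and 1 higher and 11 lower with neomycin (-0.48). By fold of the catalytic domain, 8 of 10 class I cytosolic enzymes fell with cisplatin and 9 with neomycin, and 4 and 8 of 9 class II enzymes did, Eprs1 being counted by its glutamyl part. Among all tested genes 30.5% were lower with cisplatin and 28.7% with neomycin. These are counts only, and no difference between the groups was tested.

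The DNA letters of the C/EBP-ATF response element, through which ATF4 acts with C/EBP partners, were looked for in RefSeq promoter windows of the rat assembly GRCr8 (250 bases before to 50 after an annotated start). Windows were matched for 36 of the 38 members. The motif TGATGCAA, searched on both strands, was found in the windows of 7 of 20 cytosolic and 0 of 16 mitochondrial members, and in 0.63% of 8778 tested genes with a window. The 7 were Aars1, Cars1, Iars1, Mars1, Nars1, Tars1 and Yars1, all on the ATF4 list. Sites of 5 of them are shown as examples of the letters and of their distance from the start. They are printed along the gene, with the motif or its reverse complement in capitals and 10 bases on each side where the window allows.
Tars1, chr2:62114812-62114839, minus strand, 27 bases before the start: tggcgtcccgTTGCATCAgctggttagc
Iars1, chr17:15193659-15193686, minus strand, 24 bases before the start: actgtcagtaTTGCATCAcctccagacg
Mars1, chr7:65023753-65023780, minus strand, 17 bases before the start: cccgttccggTTGCATCAgcgtgggctc
Cars1, chr1:208225335-208225362, minus strand, 17 bases after the start: ggcgccgcggTTGCATCAgattctggaa
Yars1, chr5:146820191-146820212, plus strand, 38 bases after the start: cgagctcagcTGATGCAAcctg
The distance is that of the first motif base.

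All 7 genes with the motif fell with neomycin (log2 fold changes -0.84 to -0.29, median -0.63), and 6 fell with cisplatin (median -0.31), Cars1 not being called, beside 28.7% and 30.5% lower among all tested genes. The 10 cytosolic enzymes with a window that lacked the letters had medians of -0.42 with neomycin, 8 being lower, and -0.18 with cisplatin, 5 being lower. The looser motif TGATGNAA, which takes in TGATGCAA, was found in the same count of 7 cytosolic windows and in 2.15% of the tested genes. The windows are of rat while the cells are known as mouse, and a match of letters is not a binding site.

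Set against each other, cisplatin gave more mRNA than neomycin for most cytosolic members. Of 22 members 18 were higher with cisplatin, beside 45.0% of all tested genes, and Qars1 and Aars1 were lower, beside 36.6% (81.6% were called in either direction). Replicates did not overlap for 20 of the 22, beside 83.3% of all tested genes. Quantile normalization gave 12 higher and 4 lower, and median-of-ratios scaling gave 15 higher and 2 lower. The largest differences of the set were those of Eef1e1 at 1.83 ± 0.06 on the log2 scale (limma adjusted p = 2.4e-12), Aimp1 at 1.33 ± 0.05, Farsb at 1.04 ± 0.04, Rars1 at 1.02 ± 0.05 and Aimp2 at 0.93 ± 0.08. Those of at least 2-fold on the log2(FPKM + 1) scale were Eef1e1, Aimp1, Farsb, Rars1 and the mitochondrial Yars2 (1.41 ± 0.09), beside 7.53% of all tested genes. Without the added 1, the mean FPKM of Rars2 was also over 2-fold higher, by 124%. Qars1 was at -0.68 ± 0.05, with 32.0 to 34.7 FPKM in cisplatin libraries and 53.0 to 55.1 FPKM in neomycin libraries.

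The enzymes on the ATF4 list had a median log2 fold change of 0.22 for cisplatin against neomycin, beside 0.07 over all tested genes. Their log2 fold changes of cisplatin against neomycin ran from -0.12 for Aars1 to 0.46 for Mars1, with 10 of 13 higher, beside 45.0% of all tested genes, and Eprs1 (0.05 ± 0.04) and Wars1 (-0.01 ± 0.04) not called. Changes of that size depend on the scaling. Quantile normalization called Eprs1 (-0.19, limma adjusted p = 0.00035) and Wars1 (-0.20, 0.00073) lower. It turned Gars1, Lars1, Nars1 and Tars1 to between -0.07 and -0.01, not called. Cars1 (0.10, adjusted p = 0.18) and Yars1 (0.05, 0.37) also lost their calls with it. Median-of-ratios scaling did not call Gars1 (0.08, adjusted p = 0.073), Lars1 (0.04, 0.35) or Nars1 (0.07, 0.13). The Aars1 call did not hold when cisplatin replicate 1 (adjusted p = 0.056) or 3 (0.14) or neomycin replicate 1 (0.1) or 2 (0.093) was left out. Farsa (0.85), Kars1 (0.50) and Hars1 (0.41) were higher with cisplatin under all settings tried.

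The mitochondrial set divided as 7 of 16 higher and 6 lower with cisplatin against neomycin, near the 45.0% and 36.6% of all tested genes. After Yars2 the highest were Hars2 (0.77 ± 0.07), Rars2 (0.74 ± 0.07) and Sars2 (0.64 ± 0.09). Fars2 was the lowest and the only member at least 2-fold lower (-1.04 ± 0.06), beside 5.92% of all tested genes, with 0.704 to 0.793 FPKM in cisplatin libraries and 2.49 to 2.72 FPKM in neomycin libraries. Iars2 (-0.41), Cars2 (-0.35), Aars2 (-0.34), Wars2 (-0.26) and Pars2 (-0.22) were also lower with cisplatin. The Pars2 call did not hold when neomycin replicate 1 (limma adjusted p = 0.064) or cisplatin replicate 1 (0.052) was left out. Quantile normalization lost the calls of Pars2 (0.061) and Wars2 (0.13). Mars2 (0.42), Ears2 (0.49) and Tars2 (0.28) were also higher, but Ears2 was not called with no filter on low values (0.05). Not called were Lars2 (0.13), Nars2 (-0.14) and Vars2 (-0.07). Lars2 was called at 0.20 when neomycin replicate 3 was left out (0.028) and at 0.18 with array weights (0.027). Median-of-ratios scaling called Nars2 (-0.20, adjusted p = 0.019) and Vars2 (-0.14, 0.047) lower, which gave 7 higher and 8 lower. Array weights also called Nars2 lower (-0.15, 0.047).

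**Figure D3:**
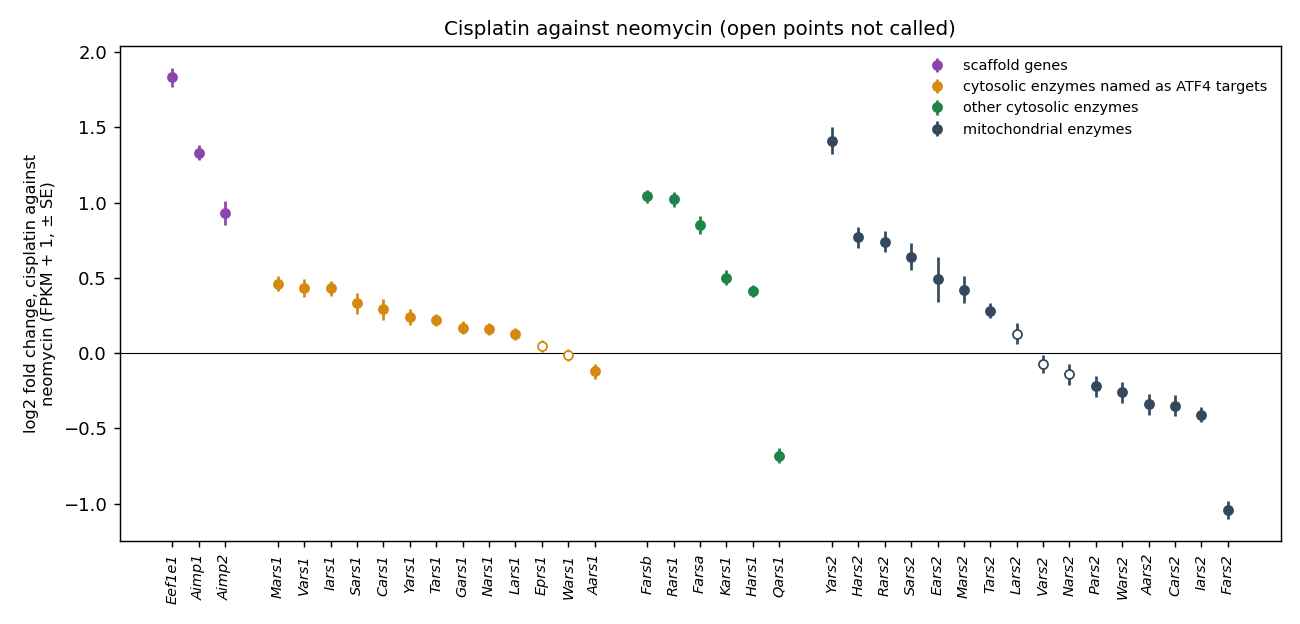
Log2 fold change (y axis, FPKM + 1, ± SE) of each member for cisplatin against neomycin, grouped by role and open where not called. The 3 scaffold genes lie between 0.93 and 1.83, the enzymes on the ATF4 list between -0.12 and 0.46, and the mitochondrial enzymes between -1.04 and 1.41.

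The cytosolic enzyme was also set beside the mitochondrial enzyme for the same amino acid, in 13 pairs, as a ratio of FPKM within each library. With neomycin the ratio lay below all PBS libraries in 9 pairs and above them in 1. With cisplatin it lay below in 5 pairs and above in 3. For single genes, replicates did not overlap with PBS in 67.4% of all tested genes for neomycin and 80.1% for cisplatin. No such share was worked out for ratios. The exception with neomycin was histidine, where Hars1 over Hars2 was 5.17 to 5.74 with cisplatin, 7.47 to 7.54 with neomycin and 3.29 to 4.04 with PBS. In the rat assembly GRCr8 these genes are neighbours. The serine ratio, Sars1 over Sars2, was 43.3 to 47.7 with cisplatin, 54.4 to 66.0 with neomycin and 93.7 to 101 with PBS. The tyrosine ratio, Yars1 over Yars2, was 13.2 to 15.9 with cisplatin, 41.4 to 46.8 with neomycin and 31.2 to 46.3 with PBS, so that cisplatin alone stood apart. For isoleucine neomycin alone stood apart, with Iars1 over Iars2 at 2.12 to 2.21 with cisplatin, 1.15 to 1.19 with neomycin and 2.06 to 2.57 with PBS. Leucine and arginine ratios overlapped between all treatments.

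**Figure D4:**
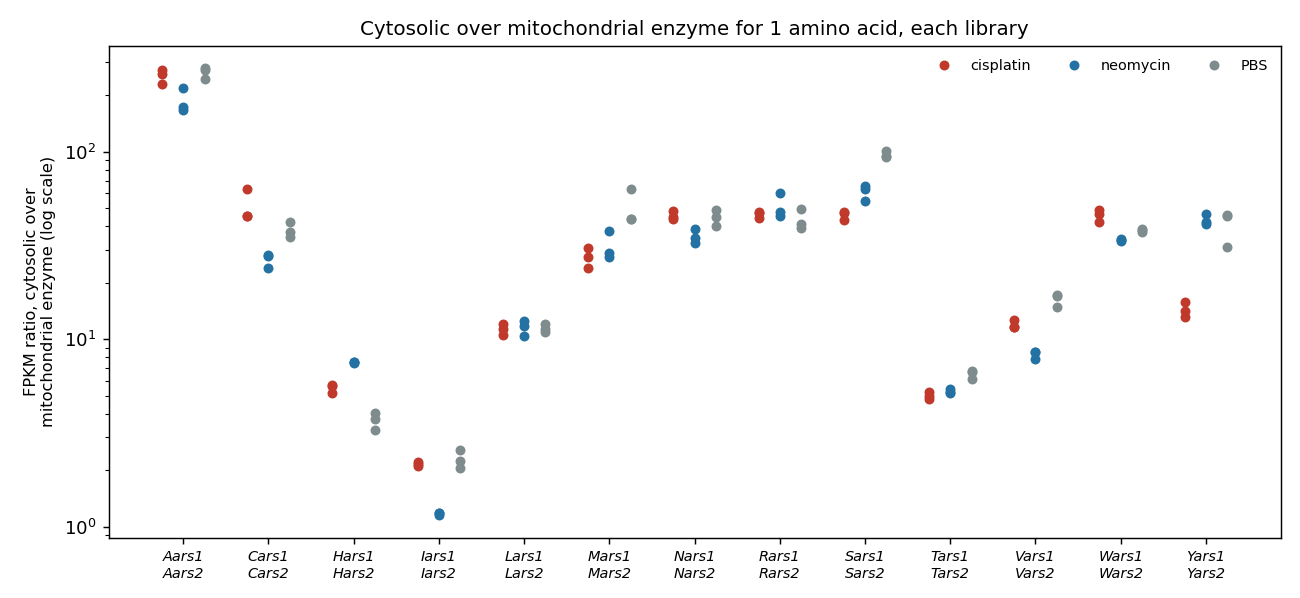
Ratio of FPKM (y axis, log scale) of the cytosolic over the mitochondrial enzyme for 13 amino acids, each point being a library, with cisplatin, neomycin and PBS from left to right. Neomycin is lowest for alanine, asparagine, cysteine, isoleucine, valine and tryptophan, and cisplatin is lowest for tyrosine and serine.

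Other genes that handle tRNA were counted in a list of 40, of which 39 were tested. With cisplatin 17 rose and 10 fell (median log2 fold change 0.10), and with neomycin 7 rose and 25 fell (-0.23). For cisplatin this lies near the 47.5% higher, 30.5% lower and median of 0.12 of all tested genes, and for neomycin those are 37.5%, 28.7% and 0.04. Xpot, the exporter that carries tRNA out of the nucleus, had 39.6, 42.1 and 38.4 FPKM with cisplatin, 39.8, 38.2 and 37.5 FPKM with neomycin and 64.7, 65.2 and 65.2 FPKM with PBS. It fell with both drugs (-0.69 ± 0.04 and -0.74 ± 0.04; limma adjusted p = 4.9e-09 and 1.2e-08). The amidotransferase subunits that work with Ears2 did not move together. Gatc fell with cisplatin (-0.72 ± 0.06), Qrsl1 rose (0.19 ± 0.08, with groups that overlapped) and Gatb was not called (-0.09 ± 0.07), while with neomycin Gatb (-0.53 ± 0.07) and Qrsl1 (-0.27 ± 0.08) fell and Gatc was not called (-0.15 ± 0.06).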

How the data were processed

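RNA sequencing of 9 libraries was analysed, 3 each from cells given cisplatin, neomycin or PBS, grouped by sample title. The deposited table holds FPKM values made by the authors for 19608 genes. The submitters' processing notes name the build mm10, while the labels name rat. No aligner or counter is named in the sources used here.

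The 10532 genes averaging 1 FPKM or more over all libraries were tested on log2(FPKM + 1) in limma 3.58.1 (R 4.3.3), with 1 mean per treatment, all 9 libraries, a mean-variance trend, and Benjamini-Hochberg adjustment over all tested genes of a comparison (threshold 0.05). The test was run on simulated data with known changes in far fewer genes than were called here, and no result of it is used. Whole reads, within 0.001 of a read, were worked out from the FPKM steps for all 19608 genes, and gave the library totals. The precision of low genes is limited by these reads. Fold changes understate the change of low genes.

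The members and lists were chosen with earlier results of these data known. The ATF4 list was written from general knowledge. Named members were, per comparison with PBS, the 6 cytosolic and 4 mitochondrial with the largest called change and replicates that did not overlap (5 of each for cisplatin against neomycin), the scaffold genes, Kars1, Gars1, those called against their set and those not called. Other members were named to account for every one. Promoter windows came from RefSeq (GRCr8). Alternatives covered the pseudocount, filter, scaling, model, test and each left-out library.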

Additional observations from a re-analysis of the deposited data

How the results depend on the processing

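Every cytosolic count against PBS stayed within 1.5 times its main value under all 18 alternatives. For cisplatin the 7 higher calls stayed 7, and the 12 lower calls ranged from 12 to 14 on leaving out 1 library and reached 15 with median-of-ratios scaling and quantile normalization. For neomycin the 19 lower calls ranged from 18 to 19 and the higher call stayed 1. On leaving out 1 library the mitochondrial calls ranged from 4 to 6 higher and 6 to 7 lower for cisplatin, and from 3 to 4 higher and 6 to 8 lower for neomycin. For cisplatin against neomycin they ranged from 7 to 8 higher and 5 to 6 lower, and the cytosolic calls stayed 18 higher and ranged from 1 to 2 lower.

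A mean of at least 5 FPKM left fewer mitochondrial members to test and so 1 higher and 2 lower for cisplatin, 1 and 3 for neomycin, and 3 and 1 for cisplatin against neomycin. Array weights gave 5 mitochondrial members higher with neomycin. The 2 cytosolic members lower with cisplatin than with neomycin became 1 with no filter and 4 with quantile normalization, and the cause was not tested. With quantile normalization 4 members called higher with cisplatin than with neomycin turned direction and lost the call, namely Gars1 (-0.07), Lars1 (-0.05), Nars1 (-0.03) and Tars1 (-0.01). Eprs1, not called there, turned to a called -0.19, and the cause was not tested. Other values that changed sign, such as that of Farsb for cisplatin (0.01 without cisplatin replicate 1), were not called before or after.

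Deviations of libraries of the same replicate number correlated by -0.05 to 0.30, and those of different numbers by -0.29 to 0.19. A batch shared by replicate number was not tested. With replicate number as a block, 8424 tested genes were called for cisplatin in place of 8216, and 7261 for neomycin in place of 6973. With the replicate block the counts were 7 higher and 14 lower cytosolic members for cisplatin, Cars1 (adjusted p = 0.046) and Sars1 (0.029) being gained, and the other counts stayed as they were. Depth limits Ears2 most, at 45 reads in its lowest library.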

Other observations

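Genes that process or modify tRNA held some of the larger changes of the pathway with cisplatin. Trit1, which adds an isopentenyl group next to the anticodon, had 10.1, 10.3 and 9.86 FPKM with cisplatin, 1.77, 1.46 and 1.78 FPKM with neomycin and 2.93, 2.90 and 2.97 FPKM with PBS. It rose with cisplatin (log2 fold change 1.49 ± 0.06; limma adjusted p = 8.0e-11) and fell with neomycin (-0.56 ± 0.06; adjusted p = 4.2e-06). The tRNA splicing gene Tsen15 (1.15 ± 0.06) and the mitochondrial thiolation gene Trmu (1.13 ± 0.07) were next in size with cisplatin. With neomycin Tsen15 (-0.27 ± 0.06) and Trmu (-0.23 ± 0.07) fell. Trnt1, which adds the terminal CCA to every tRNA, fell with neomycin (-0.57 ± 0.07) and rose with cisplatin (0.27 ± 0.07).

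The E-box CACGTG, to which MYC and MAX bind, was searched after the values were seen. Its letters were in the windows of 5 of 20 cytosolic members (Aars1, Farsb, Iars1, Tars1 and Vars1), of Ears2 among 16 mitochondrial members, and of 10.47% of tested genes. Myc had 83.9, 75.0 and 80.1 FPKM with cisplatin, 11.2, 9.22 and 8.28 FPKM with neomycin and 45, 39.0 and 41.6 FPKM with PBS. No test of a link between them was made.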
